A study of Mus musculus with 9 samples.

Results

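BV2 is a mouse microglial cell line, immortalized with a retrovirus that carries the v-raf and v-myc oncogenes, and p53 with 9 of its regulators and target genes was followed here in BV2 cells exposed to magnetic nanoparticles. The genes were chosen by name and are Trp53, which encodes p53, and Mdm2, Cdkn1a, Ccng1, Sesn1, Phlda3, Trp53inp1, Zmat3, Plk2 and Gdf15, together 10 of the 40993 genes in the deposited expression table. The 9 libraries comprised 3 of non-treated control cells, 3 of cells given 10 µg/ml (0.01 µg/µl) MNPs@SiO2(RITC) and 3 of cells given 100 µg/ml (0.1 µg/µl), both for 12 h. These particles have a cobalt ferrite core in a silica shell that carries the dye rhodamine B isothiocyanate, and no vehicle is named for the control cells. The labels do not say whether libraries of a group came from separate cultures, so the p-values cover only the spread between these libraries, and the mutation state of Trp53 in BV2 cells is not given in the sources used here.

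p53 is a transcription factor that is held at a low level by MDM2, a ubiquitin ligase that marks it for degradation and whose own gene p53 activates. When DNA damage or other stress frees p53, it binds response elements made of paired half-sites and raises genes for cell cycle arrest (Cdkn1a, Ccng1, Plk2), control of growth and oxidants (Sesn1), survival and death signalling (Phlda3, Trp53inp1, Zmat3) and secretion (Gdf15). Because p53 itself is controlled mainly at the protein level, its mRNA reports its activity poorly, and mRNA of its targets is the usual readout.

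Matches to the p53 half-site near the start sites are shown for the members whose promoter window held one, because response elements are built from half-sites. RefSeq promoter windows of GRCm38.p6, from 250 bases before to 50 bases after the start of a transcript, were given for 8 members (11 windows) and not for Trp53inp1 and Zmat3. The p53 half-site consensus, of 10 letters and identical on both strands, was searched, and capitals below mark its matches within upstream sequence. The stretches lie at chr17:29090876-29090967 on the plus strand for Cdkn1a, chr10:117710905-117710974 on the minus strand for Mdm2, chr11:40755432-40755501 on the minus strand for Ccng1, chr11:69580254-69580323 on the plus strand for Trp53 and chr10:41887236-41887305 on the plus strand for the second of the Sesn1 starts.
Cdkn1a: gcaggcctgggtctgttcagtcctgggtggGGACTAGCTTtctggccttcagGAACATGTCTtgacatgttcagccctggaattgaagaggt
Mdm2: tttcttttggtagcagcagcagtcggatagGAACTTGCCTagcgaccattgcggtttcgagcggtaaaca
Ccng1: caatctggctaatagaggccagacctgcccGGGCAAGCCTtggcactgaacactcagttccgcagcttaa
Trp53: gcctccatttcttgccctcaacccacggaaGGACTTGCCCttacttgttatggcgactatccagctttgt
Sesn1: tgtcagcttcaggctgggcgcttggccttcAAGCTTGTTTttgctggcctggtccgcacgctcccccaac
The first of the 2 Cdkn1a windows held 2 exact half-sites, at -73 and -51 from the start site of that window and 12 bases apart. It alone among these windows held an exact pair of half-sites at most 13 bases apart. Such a pair occurs in 0.0731% of all 32851 windows, and a single half-site in 8.36% of them. The search allowed no mismatch, so pairs with a less perfect half-site were missed. The 10 bases directly after the second Cdkn1a half-site miss the consensus by a single letter, as do those directly before the Ccng1 half-site. Windows of Plk2, Gdf15 and Phlda3, the first Sesn1 window and the second Cdkn1a window held no match, which says only that these letters are not in those 300 bases. A match is a description of sequence and not evidence of binding.

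Expression was given as FPKM, fragments scaled to transcript length and to the mapped total of the library, which the authors computed with Cufflinks, so levels of different genes can be compared per length. Depth cannot be read from FPKM directly, and from the steps between low values it was estimated at 12200000 to 14800000 fragments per library, an approximate value. With it, 74.8% of the 3999 low values checked came within 0.25 of a whole number of fragments. That band takes in many values by chance, and the depth was picked on these same values, so the share is no independent check. In replicate 1 at 100 µg/ml, transcripts of at least 5000 nt had a median log2 deviation of -0.23 from the other libraries and transcripts under 1500 nt one of 0.21, while in the other 8 libraries these medians lay between -0.03 and 0.09 and between -0.10 and 0.09. Of 13 microglia markers 11 averaged at least 1 FPKM in every group, with Cd68, Tyrobp and Adgre1 the highest by the mean over all 9 libraries, while Cx3cr1 and P2ry12 stayed near 0, with at most 0.146 FPKM in any library. The 16 matched markers of astrocytes, neurons, oligodendrocytes, endothelium, fibroblasts and lymphocytes summed to between 1.01 and 1.88 FPKM per library, among them Gfap and Pecam1, and none reached the filter used for testing below. At 100 µg/ml the microglia marker Adgre1 fell (log2 fold change -0.67, adjusted p = 0.00224 from limma), and the summed level of the list was 1335 to 1490 FPKM against 1479 to 1666 FPKM in control cells. The part of these markers in the values of the p53 genes was not tested.

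In control cells the order of the members by level was Plk2, Trp53, Mdm2, Ccng1, Cdkn1a, Sesn1, Gdf15, Zmat3, Trp53inp1 and Phlda3. Plk2 had 142 ± 3.12 FPKM (SD, n = 3) and Trp53 105 ± 2.65 FPKM (SD, n = 3), above 94.9% and 92.2% of the genes tested. Cdkn1a, at 18.5 ± 1.16 FPKM (SD, n = 3), lay near the middle, above 52.5% of them. In this order the control libraries of neighbours did not overlap, although the means of Ccng1 and Cdkn1a were only 1.21-fold apart.

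Differences between groups were tested with limma on log2(FPKM + 1), fitting the 3 groups together, and p-values were adjusted by Benjamini-Hochberg over the 11161 genes whose mean reached 1 FPKM, and a change was called at an adjusted p under 0.05. Fold changes on this scale understate changes of low genes. Of the 10 members, 8 reached the filter, while Trp53inp1 and Phlda3 lay below it and were not tested.

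At 100 µg/ml, 2 members changed against control cells: Sesn1 fell and Plk2 rose. The other 6 tested members, Trp53, Mdm2, Cdkn1a, Ccng1, Zmat3 and Gdf15, did not pass the test. Of all genes tested, 2.11% were called in this comparison, 0.708% as higher and 1.41% as lower. The members' median log2 fold change was 0.03, with 4 above and 4 below 0, and the median of all genes tested was 0.00.

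**Figure D1:**
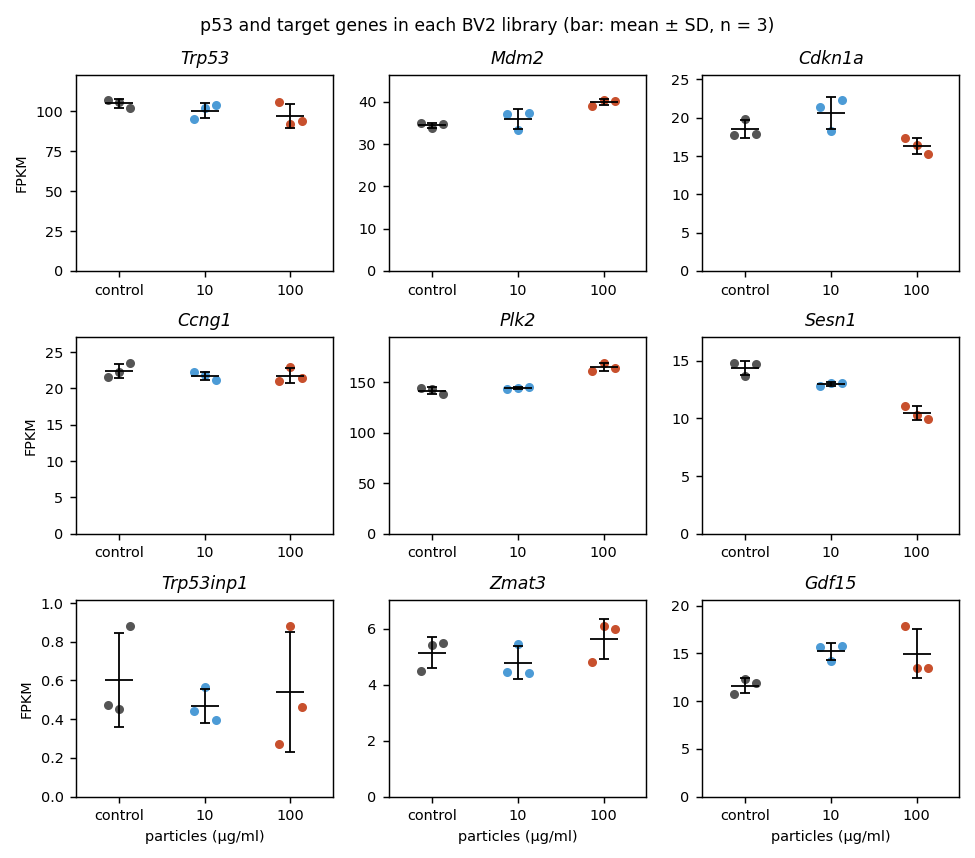
FPKM (vertical axes, from 0) of the 9 detected members in control cells and cells treated at 10 and 100 µg/ml. Points are libraries in replicate order and bars give mean ± SD (n = 3). Sesn1 is lowest and Plk2 highest in the 3 libraries at 100 µg/ml, whereas Ccng1 stays between 21.0 and 23.5 FPKM in every library.

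Trp53 (ENSMUSG00000059552, GRCm38 chromosome 11 from 69580359 to 69591873, protein-coding like all 10 members) had 107, 106 and 102 FPKM in non-treated libraries, 95.3, 102 and 104 FPKM at 10 µg/ml and 106, 92.1 and 94.0 FPKM at 100 µg/ml. The groups overlapped, with replicate 1 at 100 µg/ml standing at control level and the other libraries of that dose below it. The log2 fold change at 100 µg/ml was -0.11 (95% interval -0.26 to 0.03, adjusted p = 0.378 from limma), and without that replicate it was -0.17 (adjusted p = 0.0848 from limma). The processed pseudogene Trp53-ps was listed at 0 FPKM in every library. The p53 relatives Trp63 and Trp73 were at 0 in 9 and 8 libraries.

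Mdm2 (ENSMUSG00000020184, chromosome 10 from 117688888 to 117710758), the inhibitor and target of p53, had 34.9, 33.8 and 34.8 FPKM in non-treated libraries, 37.2, 33.3 and 37.3 FPKM at 10 µg/ml and 39.1, 40.4 and 40.2 FPKM at 100 µg/ml. All 3 libraries at 100 µg/ml lay above both other groups, which overlapped each other. The log2 fold change at 100 µg/ml was 0.20 (adjusted p = 0.0975 from limma, standard error 0.06) and missed the threshold, as it did in the 15 alternative fits, with an adjusted p between 0.0710 and 0.278. Between the doses it was 0.15 (adjusted p = 0.272 from limma).

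Cdkn1a (ENSMUSG00000023067, chromosome 17 from 29090979 to 29100722) encodes p21, the inhibitor of cyclin-dependent kinases through which p53 halts the cell cycle, and is the member with the exact pair of half-sites printed above. It had 17.8, 19.9 and 17.9 FPKM in non-treated libraries, 21.4, 18.3 and 22.3 FPKM at 10 µg/ml and 17.3, 16.4 and 15.3 FPKM at 100 µg/ml. The libraries at 100 µg/ml lay below all control libraries and all libraries at 10 µg/ml, and those at 10 µg/ml overlapped the control. The log2 fold change was 0.15 at 10 µg/ml (adjusted p = 1.00 from limma), -0.17 at 100 µg/ml (95% interval -0.36 to 0.02, adjusted p = 0.317) and -0.32 between the doses (95% interval -0.51 to -0.12, adjusted p = 0.144), none of which passed the threshold. Mdm2 and Cdkn1a thus had fitted values of opposite sign at 100 µg/ml, neither past the test.

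Ccng1 (ENSMUSG00000020326, chromosome 11 from 40748552 to 40755311), which encodes cyclin G1, a partner of protein phosphatase 2A, had 21.5, 22.2 and 23.5 FPKM in non-treated libraries, 22.2, 21.9 and 21.1 FPKM at 10 µg/ml and 21.0, 22.9 and 21.4 FPKM at 100 µg/ml. The groups overlapped fully, with log2 fold changes of -0.04 at each dose and a 95% interval of -0.17 to 0.09 at 100 µg/ml.

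Plk2 (ENSMUSG00000021701, chromosome 13 from 110395044 to 110400844), a polo-like kinase that acts in centriole duplication, had 144, 143 and 138 FPKM in non-treated libraries, 143, 144 and 145 FPKM at 10 µg/ml and 161, 169 and 164 FPKM at 100 µg/ml. The 3 libraries at 100 µg/ml lay above the other 6, which overlapped. Plk2 rose by 1.17-fold in mean FPKM at 100 µg/ml, and its fitted difference in log2(FPKM + 1) was 0.22 (standard error 0.04, 95% interval 0.12 to 0.32, adjusted p = 0.0390 from limma). Against 10 µg/ml the log2 fold change was 0.20 (adjusted p = 0.0863 from limma), and at 10 µg/ml against control it was 0.02 (95% interval -0.07 to 0.12). The call against control was lost without any one of the control replicates 1, 2 and 3 or of the treated replicates 2 and 3 (adjusted p from limma between 0.0957 and 0.146) as well as after quantile normalization (0.0732), without the trend (0.0633), with the replicate block (0.0983) and with the 6 libraries alone (0.133), while the log2 fold change stayed between 0.20 and 0.25.

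Sesn1 (ENSMUSG00000038332, chromosome 10 from 41810574 to 41908424) encodes a sestrin, a protein that restrains mTORC1 signalling when amino acids are scarce and limits oxidants. It had 14.8, 13.7 and 14.7 FPKM in non-treated libraries, 12.8, 13.1 and 13.1 FPKM at 10 µg/ml and 11.1, 10.3 and 9.98 FPKM at 100 µg/ml. No group overlapped another, and the 10 µg/ml libraries lay between the others. Sesn1 fell to 0.725 of the control mean at 100 µg/ml, and its fitted difference in log2(FPKM + 1) was -0.43 (standard error 0.06, 95% interval -0.57 to -0.29, adjusted p = 0.0123 from limma). At 10 µg/ml the log2 fold change was -0.14 (unadjusted p = 0.0453 from limma, adjusted p = 1.00) and between the doses -0.29 (adjusted p = 0.0749), neither past the threshold. In this bulk RNA a lower level per cell and fewer expressing cells cannot be told apart. The adjusted p of Sesn1 from limma at 100 µg/ml rose to 0.0603 when control replicate 1 was left out, to 0.0521 for control replicate 2 and to 0.0512 for the third treated replicate, and was 0.0783 with the 6 libraries alone, with log2 fold changes between -0.46 and -0.40.

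**Figure D2:**
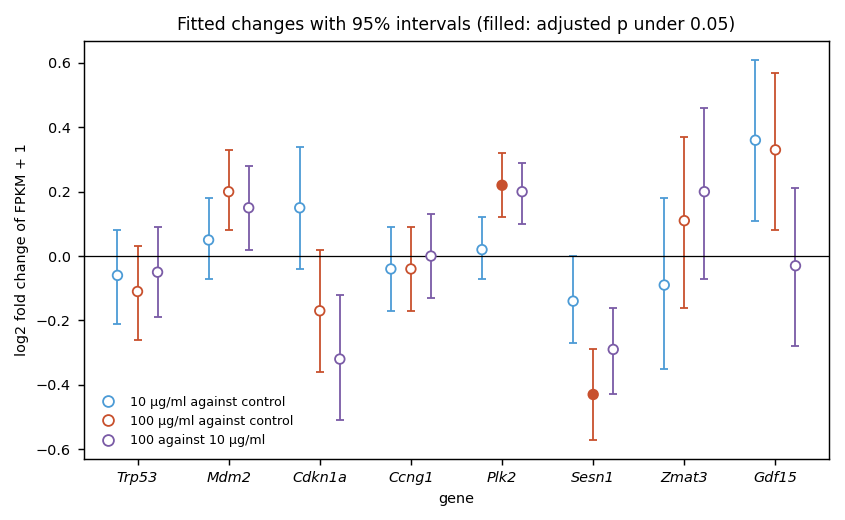
Fitted log2 fold change of FPKM + 1 (vertical axis) of the 8 tested members in the 3 comparisons, with 95% intervals from limma, and filled points where the adjusted p is under 0.05. The filled points are Sesn1 (-0.43) and Plk2 (0.22) at 100 µg/ml against control.

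Gdf15 (ENSMUSG00000038508, chromosome 8 from 70629393 to 70632456), a secreted stress cytokine that ATF4 and CHOP also activate, had 10.7, 12.3 and 11.9 FPKM in non-treated libraries, 15.7, 14.2 and 15.8 FPKM at 10 µg/ml and 17.9, 13.5 and 13.5 FPKM at 100 µg/ml. All 6 treated libraries lay above the 3 control libraries, and the doses overlapped. The log2 fold change was 0.36 at 10 µg/ml (standard error 0.11, 95% interval 0.11 to 0.61, unadjusted p = 0.00901 and adjusted p = 1.00 from limma) and 0.33 at 100 µg/ml (95% interval 0.08 to 0.57, adjusted p = 0.151), so it passed the threshold at neither dose. Without replicate 1 at 100 µg/ml, its highest library, the value at that dose was 0.20. The longest Gdf15 transcript has 1545 nt, just above the class under 1500 nt that stood high in that replicate. The part of transcript length in this value was not tested. Both comparisons with control share the control libraries. Of a list of 8 genes, ATF4 itself and stress genes related to it, 7 were tested, and at 100 µg/ml 1 fell, Ddit4, an inhibitor of mTORC1 (log2 fold change -0.91, adjusted p = 0.0132 from limma, but 0.0544 and 0.0640 without control replicate 1 or 2), and 0 rose. The median log2 fold change of the 7 was -0.35. Without overlap, 4 of the 7 lay lower and 0 higher than control at 100 µg/ml, where 11.4% and 12.5% of all genes tested did so. At an unadjusted p under 0.05 from limma there were 4 lower and 0 higher, against 9.69% and 9.67% of all genes tested. The most abundant of the 7 were Atf4, Atf3 and Asns.

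Zmat3 (ENSMUSG00000027663, chromosome 3 from 32334796 to 32365678), an RNA-binding protein gene, had 4.50, 5.43 and 5.51 FPKM in non-treated libraries, 4.46, 5.47 and 4.42 FPKM at 10 µg/ml and 4.81, 6.11 and 5.98 FPKM at 100 µg/ml. All groups overlapped, and the log2 fold change at 100 µg/ml was 0.11 (95% interval -0.16 to 0.37). Without replicate 1 at 100 µg/ml it was 0.20 (adjusted p = 0.313 from limma). The longest Zmat3 transcript has 7797 nt, in the class that stood low in that replicate, and the part of length was not tested. Trp53inp1 (ENSMUSG00000028211, chromosome 4 from 11156431 to 11174379), whose product promotes p53 phosphorylation and autophagy, ranged from 0.274 to 0.883 FPKM over the 9 libraries, about 22 to 67 estimated fragments per library, with overlapping groups. Phlda3 (ENSMUSG00000041801, chromosome 1 from 135766119 to 135769136), an inhibitor of AKT, was listed at 0 in all libraries. A 0 in this table can be a failed estimate, since 9 genes exceeded 1000 FPKM in part of the libraries while listed at 0 elsewhere.

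Counted by libraries alone, 5 of the 8 tested members did not overlap between 100 µg/ml and control, 3 of them higher (Mdm2, Plk2 and Gdf15) and 2 lower (Cdkn1a and Sesn1), where 23.8% of all genes tested did so, 12.5% higher and 11.4% lower. At an unadjusted p under 0.05 there were 4, Mdm2, Plk2 and Gdf15 higher and Sesn1 lower, where 19.4% of all genes tested had such a p, 9.67% higher and 9.69% lower. At 10 µg/ml 2 members did not overlap with control, Gdf15 above and Sesn1 below it, where 10.7% of all genes tested did so, 6.14% above and 4.61% below. Between the doses 4 did not overlap, Mdm2 and Plk2 higher and Cdkn1a and Sesn1 lower at 100 µg/ml, where 19.4% of all genes tested did so, 9.37% higher and 9.99% lower.

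At 10 µg/ml against control, limma called 0 of the 8 tested members and 0% of all genes tested. At an unadjusted p under 0.05 there were 2 members, Gdf15 and Sesn1, where 3.28% of all genes tested had such a p, 1.74% higher and 1.54% lower. Between 100 and 10 µg/ml limma also called 0 members, where 0.851% of all genes tested were called, 0.215% higher and 0.636% lower. At an unadjusted p under 0.05 there were 4, with Mdm2 and Plk2 higher and Cdkn1a and Sesn1 lower at 100 µg/ml, where 14.3% of all genes tested had such a p, 6.49% higher and 7.80% lower. Without replicate 1 at 100 µg/ml, 2 members were called between the doses, Sesn1 (adjusted p = 0.0291 from limma) and Plk2 (adjusted p = 0.0392), in a fit that called 189 of all 11161 genes tested, against 95 with that replicate included.

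Of 33 genes listed as other p53 targets, 28 were tested. Ddit4 was counted in the ATF4 list above and not among these. At 100 µg/ml 0 of the 28 rose, 1 fell and 27 did not pass, with a median log2 fold change of 0.01. The gene that fell was Sesn2, the other sestrin listed (ENSMUSG00000028893, chromosome 4 from 132492032 to 132510501), which ATF4 also activates. It had 9.78, 11.9 and 12.2 FPKM in non-treated libraries, 12.7, 11.4 and 11.8 FPKM at 10 µg/ml and 6.86, 7.44 and 6.72 FPKM at 100 µg/ml. The libraries at 100 µg/ml lay below the other 6, which overlapped. The log2 fold change was -0.62 against control (standard error 0.09, adjusted p = 0.0142 from limma) and -0.70 against 10 µg/ml (adjusted p = 0.0138). Without control replicate 2, control replicate 3 or replicate 3 at 100 µg/ml the adjusted p against control was 0.0758, 0.0514 and 0.0617 from limma, and with the 6 libraries alone 0.0783.

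**Figure D3:**
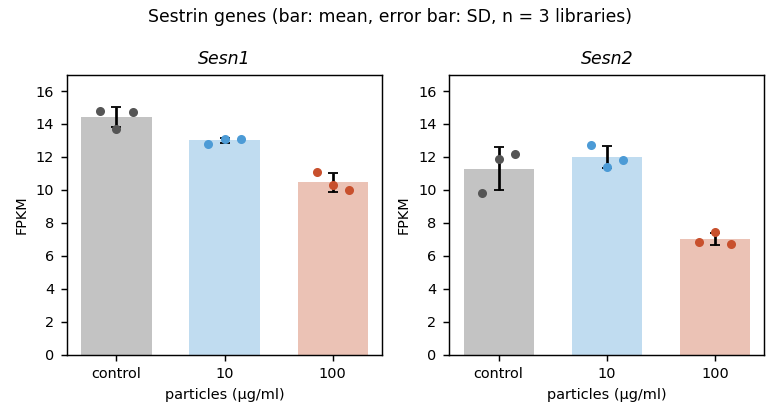
FPKM (vertical axis, from 0) of Sesn1 and Sesn2 in control cells and cells treated at 10 and 100 µg/ml. Bars are means, error bars SD (n = 3) and points libraries. At 100 µg/ml the means are 10.4 FPKM for Sesn1 and 7.01 FPKM for Sesn2, against 14.4 and 11.3 FPKM in control cells.

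Of the death genes among these targets, 10 of 13 were tested and 0 changed at 100 µg/ml. The most abundant were Bax, the pore-forming effector of apoptosis, Triap1 and Aen, and Perp, Tnfrsf10b and Eda2r lay below the filter. Bax had 98.8, 99.3 and 86.3 FPKM in non-treated libraries and 130, 92.7 and 99.9 FPKM at 100 µg/ml, with replicates 1 and 3 above the control range and replicate 2 within it (log2 fold change 0.17, adjusted p = 0.499 from limma). Fas, the death receptor, had 4.46, 6.16 and 4.85 FPKM in control and 4.13, 2.87 and 2.90 FPKM at 100 µg/ml, groups that did not overlap, with a log2 fold change of -0.52 that did not pass (adjusted p = 0.170 from limma). Of the arrest and repair genes 10 of 11 were tested and 0 changed. Their most abundant were Gtse1, Ckap2 and Rrm2b, and Gadd45a, Btg2 and Polk had all libraries at 100 µg/ml below control, with adjusted p of 0.232, 0.174 and 0.258 from limma. Of the metabolic and other targets 8 of 9 were tested, the most abundant being Rps27l, Steap3 and Tigar, and Sesn2 was the 1 gene called. Tigar had all libraries at 100 µg/ml above control (log2 fold change 0.15, adjusted p = 0.193 from limma). Over the 28 tested targets, 5 lay lower and 1 higher than control without overlap at 100 µg/ml, where 11.4% and 12.5% of all genes tested did so. At an unadjusted p under 0.05 from limma there were 6 lower and 1 higher, against 9.69% and 9.67% of all genes tested. At 10 µg/ml 0 of the 28 targets were called by limma, and 1, Pml, had an unadjusted p under 0.05 (log2 fold change 0.30, adjusted p = 1.00).

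**Figure D4:**
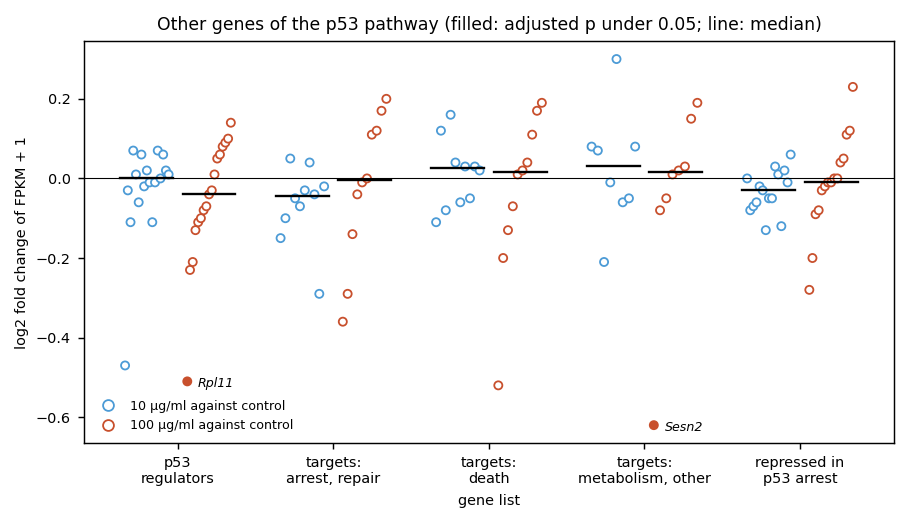
Log2 fold change of FPKM + 1 (vertical axis) of the other tested genes of the pathway by list, at 10 and 100 µg/ml against control. Each circle is a gene, black lines are list medians and filled circles have an adjusted p under 0.05 in limma, which holds for Rpl11 (-0.51) and Sesn2 (-0.62) at 100 µg/ml.

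All 17 genes that act on p53 were tested, the most abundant being Usp7, Mdm4 and Rpl11. Their median log2 fold change at 100 µg/ml was -0.04, and 1 fell, Rpl11, a ribosomal protein that can bind and inhibit MDM2. Rpl11 had 56.8, 59.2 and 52.3 FPKM in non-treated libraries, 38.5, 40.3 and 42.0 FPKM at 10 µg/ml and 44.7, 33.1 and 39.9 FPKM at 100 µg/ml, with both treated groups below control. The log2 fold change was -0.47 at 10 µg/ml (adjusted p = 1.00 from limma) and -0.51 at 100 µg/ml (adjusted p = 0.0394), and the latter call was lost in 5 of the 6 fits with 1 library omitted, all but that without replicate 1 at 100 µg/ml (adjusted p up to 0.157), and without the filter (0.0793), with the replicate block (0.0948), without the trend (0.0517) and with the 6 libraries alone (0.135). Reads shared with copies of ribosomal protein genes elsewhere in the genome were not tested, so this value is uncertain. Cdkn2a, whose ARF product also inhibits MDM2, had 39.4 to 42.3 FPKM in control cells and 36.2 to 54.6 FPKM at 100 µg/ml (adjusted p = 0.844 from limma). This value is for the whole gene and does not separate the ARF transcript from others of the gene.

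The 15 cell cycle genes that are repressed when p53 arrests cells were all tested, and 0 were called at either dose. Their medians were -0.03 at 10 µg/ml and -0.01 at 100 µg/ml. At 100 µg/ml 2 lay higher and 1 lower than control without overlap, where 12.5% and 11.4% of all genes tested did so. These were Mybl2 (log2 fold change 0.23, adjusted p = 0.109 from limma) and Aurka (0.12, adjusted p = 0.381) above, and Ccnb2 (-0.28, adjusted p = 0.0848) below. Cdk1, Cdc20 and Top2a were the most abundant, with mean levels of 191, 128 and 126 FPKM.

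Across the 9 libraries and the 9022 genes averaging 5 FPKM or more, the log2 profiles most like that of Trp53 were those of Calr, Gm15920 and Atp5c1 (Pearson r 0.98, 0.97 and 0.96). Those most like Mdm2 were Aim2, Yipf7 and 3110002H16Rik (0.94 each), and those most like Cdkn1a were Il1a, Pim1 and Pfkm (0.98, 0.97 and 0.93). These are the highest of many values over few libraries that share their doses, and are given as a description only.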

How the data were processed

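RNA from 9 BV2 libraries was sequenced after oligo(dT) selection, and samples were grouped by the condition in their labels. Per the methods, the authors discarded reads of poor quality before alignment with TopHat, and they deposited FPKM from Cufflinks 2.1.1 on Ensembl release 77, with correction for fragment bias and multiple mapping. The deposited FPKM values have no counts, and their precision at low levels was judged from estimated fragments.

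Genes were joined by identifier. Genes whose mean reached 1 FPKM were fitted on log2(FPKM + 1) with limma 3.58.1 in R 4.3.3 (eBayes with trend, 3 groups in one fit, Benjamini-Hochberg adjustment), after the procedure was tested on simulated data. Tables used Python 3.11.15 and pandas 2.3.3. Cuffdiff needs alignments and was not run. None of the members overlapped another gene of the table. The members, the gene lists and the tests were chosen with earlier results of these data known. Beside the members, the rule for naming covers list genes with an adjusted p under 0.05, the 3 most abundant of each list and the 3 closest profiles of Trp53, Mdm2 and Cdkn1a. Other list genes that the text names were chosen after their values were seen. Tigar and Adgre1 appear in the table under older symbols, and Tubb3 was not matched. Some genes of the marker lists that the rule would name are not reported here. Alternatives were pseudocounts of 0.1 and 0.01, no filter, a filter at 5 FPKM, quantile and median-of-ratios scaling, a replicate block, no trend, a fit to the 6 libraries of a comparison, and omission of each library in turn.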

Additional observations from a re-analysis of the deposited data

Results flagged for a closer look

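The effects of the doses differed, by the test of 100 against 10 µg/ml, for 3 genes named here, of which none is a member. Sesn2 had a log2 fold change of -0.70 between the doses (adjusted p = 0.0138 from limma), with 0.08 at 10 µg/ml and -0.62 at 100 µg/ml against control, and lay lower in 3 of 3 libraries at 100 µg/ml. Its adjusted p rose to between 0.0613 and 0.0829 without any one of the 10 µg/ml replicates 1, 2 and 3 or of replicate 3 at 100 µg/ml, and was 0.0572 with the replicate block. Ddit4 had -0.96 between the doses (adjusted p = 0.0174 from limma), which missed the threshold without replicate 1 or 3 at 10 µg/ml and without replicate 2 or 3 at 100 µg/ml (0.0545 to 0.0750). The macrophage surface receptor gene Adgre1 had -0.59 (adjusted p = 0.00598 from limma), which missed the threshold with only the 6 libraries of these doses (0.0727), where Sesn2 (0.0727) and Ddit4 (0.114) did too.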

How the results depend on the processing

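Of 360 values of members under the alternatives, 341 kept their direction and their side of the threshold, but most of them had no call to lose. Of the 2 calls at 100 µg/ml against control, that of Sesn1 was kept in 11 of the 15 alternative fits and that of Plk2 in 6. The number of members called at 100 µg/ml against control, 2, was 1 after quantile normalization, 1 with the replicate block, 1 without the trend, 0 with only the 6 libraries compared and 0 to 2 when single libraries were left out. Between the doses, 0 members were called, and 0 to 2 with single libraries left out. The other p53 targets called, 1 in each of these comparisons, were 0 with only the 6 libraries compared, 0 between the doses with the replicate block, and 0 to 1 with single libraries left out. Over all genes, 236 were called at 100 µg/ml, against 106 with the replicate block, 22 with only 6 libraries and 28 (without control replicate 2) to 530 (without replicate 1 at 100 µg/ml) with single libraries left out. Between the doses 95 were called, against 13 with the replicate block, 6 with only 6 libraries and 8 to 189 with single libraries left out. At 10 µg/ml 0 were called, against 4 without the filter, 1 with only 6 libraries and 0 to 2 with single libraries left out. The causes were not tested, although fits with fewer libraries also have fewer degrees of freedom. Values near 0 changed sign with single libraries left out: between the doses Ccng1 (0.00) ranged from -0.03 to 0.03 (-0.02 without replicate 3 at 10 µg/ml), Gdf15 (-0.03) from -0.16 to 0.03 and Rpl11 (-0.04) from -0.14 to 0.07, and at 10 µg/ml Sesn2 (0.08) from -0.01 to 0.14 and Ddit4 (0.05) from -0.08 to 0.18. Deviations from the group means correlated at -0.088 to 0.152 between libraries with the same replicate number, and at -0.166 to 0.143 between different numbers. With these overlapping ranges and 3 libraries per group, the comparison cannot decide whether the numbers pair the samples. The labels do not say so either. With the block Sesn1 kept its call (adjusted p = 0.0429 from limma) and Plk2 did not (0.0983). Low values such as those of Trp53inp1 rest on few estimated fragments, and the part of depth in their spread was not tested.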

Other observations

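The p53 regulators Mdm4 and Ep300 stood lower in replicate 1 at 100 µg/ml than in the other libraries of that dose. Mdm4, a relative of Mdm2 that inhibits p53, had 34.7 FPKM there and 52.8 and 51.8 FPKM in replicates 2 and 3, against 51.6 to 55.4 FPKM in control cells. Ep300, a coactivator of p53, had 23.4 FPKM there and 39.3 and 39.0 FPKM in the other replicates of that dose. These genes were chosen after their values were seen, and the part of transcript length in these values was not tested.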
